A study of Nicotiana tabacum with 10 samples.

Results

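The 150 gene models that differed most among the auxin-free samples were examined in BY-2 cells, a tobacco line (Nicotiana tabacum, cultivar Bright Yellow 2) that grows quickly in suspension and depends on added auxin. The series holds 7 control samples, grown with the synthetic auxin 2,4-dichlorophenoxyacetic acid (2,4-D) at 0.2 mg/l, and 3 auxin-free samples, inoculated into the same medium without 2,4-D. All 10 were collected 48 h after inoculation, are labelled as cells in exponential growth, and were kept in the dark under continuous shaking. The members are the 150 models with the highest ratio of (highest CPM + 1) to (lowest CPM + 1) over the 3 auxin-free libraries, where CPM is the estimated count of a model per 1000000 estimated reads of its library. They were ranked among 16770 models with at least 10 CPM in an auxin-free library and a control mean of at least 1 CPM, out of 69500 models in all, and these 16770 are called eligible below. The ratio ran from 81.6 at the first rank to 5.03 at rank 150, with a median of 7.02, against 1.30 over all eligible models. The models just inside the limit had ratios of 5.04 and 5.03, and those just outside it 5.02 and 5.01. The members were thus chosen by their CPM in the auxin-free libraries, and their unevenness there is described without a test.

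Auxin is the hormone that keeps BY-2 cells dividing, and a culture without it stops dividing and its cells elongate. Tobacco is an allotetraploid that carries near-identical gene copies from its parental species, and a read that matches both copies is divided between them by the quantification. No gene names or functions are given here, because 0 of the 69500 identifiers matched the reference table of tobacco genes used, which lists 79372 genes of another assembly.

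Library size did not set the auxin-free samples apart. Auxin-free replicates 1, 2 and 3 held 15159895, 16201362 and 16216471 estimated reads, and the controls 11280031 to 23705016. The median gap between length and effective length over models longer than 1400 bases is a library property that the quantification estimates. It was 255 bases in auxin-free replicate 1, 275 in replicate 2 and 276 in replicate 3, against 356 to 401 bases in the controls. The groups did not overlap in this gap, and its part in the comparison of auxin-free with control samples was not tested. Over the 16620 eligible models that are not members, the root mean square difference of log2(CPM + 1) was 0.54 between auxin-free replicates 1 and 2, 0.42 between 2 and 3, and 0.31 between 1 and 3. Auxin-free replicate 2 was therefore the farthest of the 3 libraries on models outside the set as well. Whether the 3 auxin-free samples, or the 7 controls, were separate cultures is not stated in the labels. P-values then cover only the spread between the samples at hand, which may be technical.

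Auxin-free replicate 2 carried the extreme value in 147 of the 150 members, being the highest library in 127 and the lowest in 20. Over all eligible models it was the highest of the 3 in 36.6% and the lowest in 44.7%. Auxin-free replicate 1 was the lowest library in 122 members, against 28.4% of eligible models. The same order, replicate 1 below replicate 3 below replicate 2, was found in 119 members, or 79.3%, and in 21.0% of eligible models. Auxin-free replicate 3 was the highest library in 8 members and the lowest in 8, and in 0 of the 150 was it the library farther from the middle value on the log2(CPM + 1) scale. By that measure replicate 2 stood apart in 89 members (70 high, 19 low) and replicate 1 in 61 (60 low, 1 high), or 59.3% and 40.7%. Over the eligible models replicates 1, 2 and 3 stood apart in 29.6, 52.3 and 18.1%, so the share of replicate 2 was near that of all eligible models while its direction was more often high (46.7% of members, 22.2% of eligible models). These counts follow from the choice of members and describe which library carried the unevenness.

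**Figure D1:**
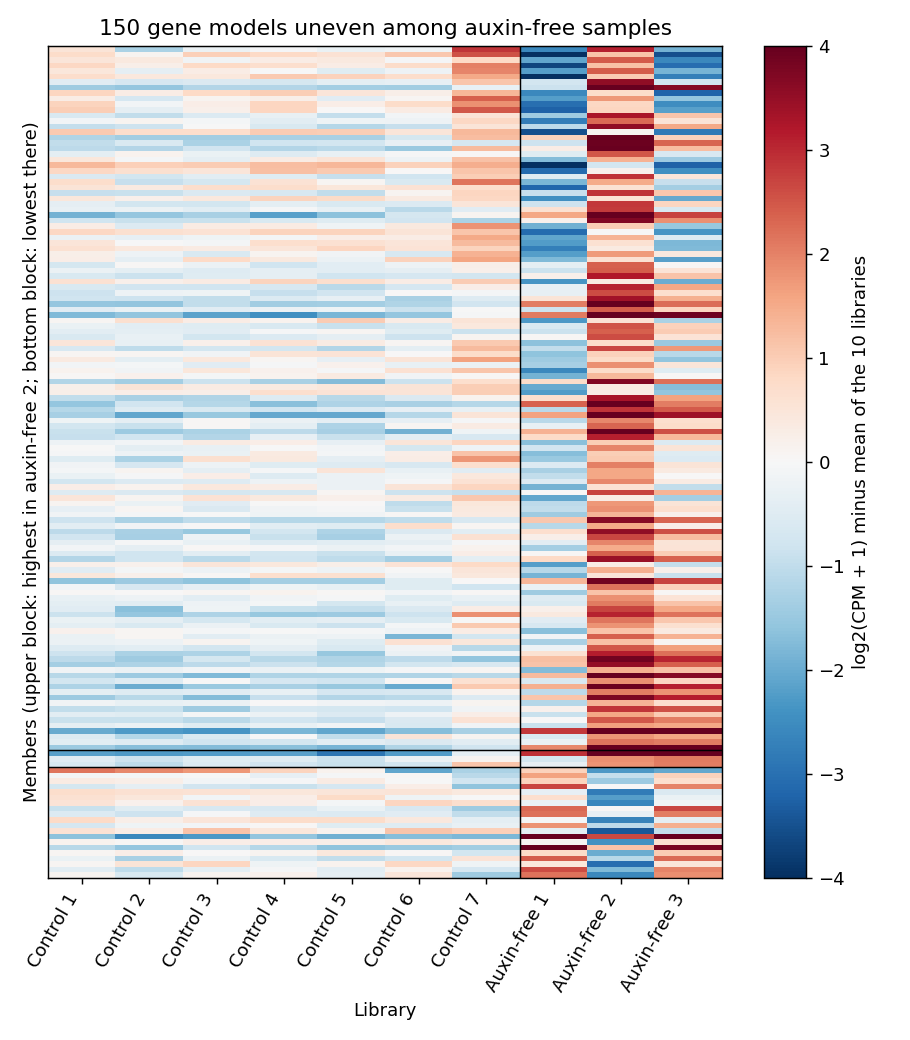
Each row is 1 of the 150 members and each column a library, coloured by log2(CPM + 1) minus the mean of the member over the 10 libraries (red above, blue below; values beyond the scale take its end colours). The upper block holds the 127 members highest in auxin-free replicate 2, the narrow block the 3 with replicate 2 in the middle, and the bottom block the 20 lowest in replicate 2, and control 7 is redder than the other controls through much of the upper block.

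The 127 members highest in auxin-free replicate 2 took 0.194% of the reads in auxin-free replicate 1, 1.59% in replicate 2 and 0.599% in replicate 3. The median difference of log2(CPM + 1) was 2.80 between replicates 2 and 1, 1.52 between replicates 2 and 3, and 1.27 between replicates 3 and 1. The 20 members lowest in replicate 2 took 0.125%, 0.0167% and 0.105% of the reads in replicates 1, 2 and 3. In these, replicates 1 and 3 lay close together, with a median log2 difference of -0.27 for replicate 3 minus replicate 1, and the difference of replicate 2 minus replicate 1 had a median of -2.79. By these medians the larger class was graded over all 3 libraries, and the smaller one was low in a single library. Single members differed from this. Within the larger class replicate 2 was the library that stood apart in 70 members, and in 8 replicate 3 lay below replicate 1. Within the smaller class the member at rank 44 stood apart by a high value in replicate 1. The highest library of a member held 157 to 37880 reads, with a median of 699, and the lowest a median of 76.8. In 7 members the lowest library held 3 reads or fewer, among them 2 with 0, and for these the ratio rests on the added 1 CPM. The added 1 CPM also weighs on other members whose lowest library lay under it. Examples are the members at ranks 2, 4 and 9, with 0.33, 0.274 and 0.437 CPM there.

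The first member, Nitab4.5_0000977g0040.1, is a model of 1371 bases. It had 1.45, 199 and 56.3 CPM in auxin-free replicates 1, 2 and 3, and 0.535 to 2.60 CPM in the controls, with a median of 0.736. Auxin-free replicate 1 lay within the control range, while replicates 2 and 3 lay far above it. It was called higher in the auxin-free samples, with a log2 fold change of 6.46 ± 0.86 (SE; edgeR quasi-likelihood adjusted p = 2.69e-05). Nitab4.5_0000202g0490.1, of 1544 bases, had the same shape, with 2.41, 92.3 and 29.9 CPM in auxin-free replicates 1, 2 and 3 and 1.52 to 3.82 CPM in the controls (median 2.65). It too was called higher, with a log2 fold change of 4.06 ± 0.63 (SE; edgeR adjusted p = 9.12e-05). The mean rise of both came almost wholly from replicates 2 and 3. Replicate 1 had 1.45 and 2.41 CPM against control means of 1.035 and 2.63 CPM.

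The next 2 in rank are neighbours on 1 scaffold, reading the identifiers as a scaffold and an order along it. Nitab4.5_0001269g0070.1, of 1971 bases, had 0.33, 68.6 and 1.17 CPM in auxin-free replicates 1, 2 and 3. Its controls ran from 2.33 to 56.9 CPM with a median of 6.05, and the highest was control replicate 7, where the other 6 did not exceed 10.5 CPM. Nitab4.5_0001269g0060.1, of 2070 bases, had 0.132, 53.1 and 1.15 CPM in the auxin-free replicates and 25.2 to 143 CPM in the controls (median 41.7), again highest in control replicate 7. In both models auxin-free replicate 2 stood near or above the usual control level, and replicates 1 and 3 fell below every control. Neither was called, with log2 fold changes of 0.91 ± 1.12 and -1.48 ± 1.04 (SE; edgeR adjusted p = 0.497 and 0.230). Without auxin-free replicate 2 the log2 fold changes were -4.04 and -6.27 and both were called lower (edgeR adjusted p = 0.0228 and 8.65e-05). With limma-voom on all 10 libraries the second was also called lower (log2 fold change -4.31; limma adjusted p = 0.00627), so its call depended on the method as well as on that library.

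Nitab4.5_0006081g0010.1, of 1362 bases, behaved like that pair, with 0.274, 40.9 and 2.06 CPM in the auxin-free replicates and 26.6 to 57.4 CPM in the controls (median 32.4). It was not called (log2 fold change -1.26 ± 0.86, SE; edgeR adjusted p = 0.216), and was called lower without auxin-free replicate 2 (-4.91; edgeR adjusted p = 1.83e-05) and with limma-voom on all 10 libraries (-3.49; limma adjusted p = 0.00536). Nitab4.5_0004757g0020.1, of 927 bases, had 1.22, 71.4 and 20.6 CPM in the auxin-free replicates against 10.2 to 25.9 CPM in the controls (median 12.9). Its 3 auxin-free libraries thus lay below, above and within the control range, and it was not called (1.17 ± 0.65, SE; edgeR adjusted p = 0.129). Without auxin-free replicate 1 it was called higher (1.72; edgeR adjusted p = 0.00154), and without replicate 2 its sign turned (-0.36; edgeR adjusted p = 0.659).

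The first 2 members called lower had all 3 auxin-free libraries below every control. Nitab4.5_0003774g0040.1, of 1520 bases, had 5.17, 73.5 and 8.77 CPM in auxin-free replicates 1, 2 and 3 against 96.8 to 169 CPM in the controls (median 137), a log2 fold change of -2.10 ± 0.65 (SE; edgeR adjusted p = 0.0124). Nitab4.5_0007700g0010.1, of 1101 bases, had 0.066, 10.9 and 1.11 CPM, or 1, 177 and 18 reads, against 36.2 to 53.5 CPM (median 45.6). Its log2 fold change was -3.37 ± 0.77 (SE; edgeR adjusted p = 0.00198). In both, replicate 2 was the auxin-free library nearest to the controls. Without it the log2 fold changes were -4.19 and -6.14.

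**Figure D2:**
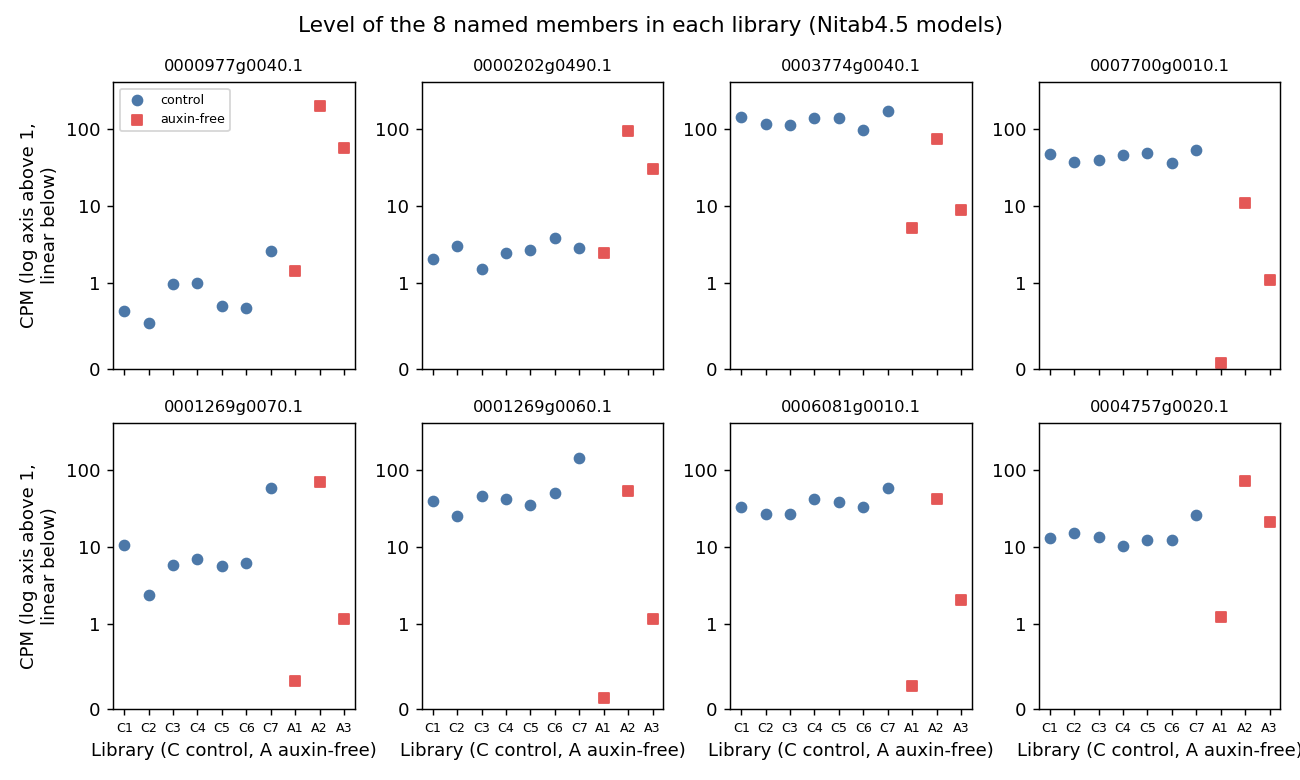
CPM of the 8 members named by identifier in each library (C1 to C7, controls, circles; A1 to A3, auxin-free, squares), on an axis that is logarithmic above 1 CPM and linear below. In each panel auxin-free replicate 2 is the highest of the 3 squares and replicate 1 the lowest, and in 7 of the 8 panels control replicate 7 is the highest circle.

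Set against the range of the 7 controls, the 127 members highest in auxin-free replicate 2 fell into several groups. The largest, 28 members, had replicate 2 within the control range and replicates 1 and 3 below every control. Their median levels were 1.83, 24.8 and 2.69 CPM in replicates 1, 2 and 3, where the median of their control means was 24.6 CPM. This pattern was found in 1.41% of eligible models. Another 27 members had replicate 1 within the control range and replicates 2 and 3 above every control, with medians of 6.15, 50.2 and 25.2 CPM against 6.15 in the controls, a pattern of 2.56% of eligible models. In 26 members all 3 auxin-free libraries lay above every control, with medians of 16.3, 117 and 45.6 CPM against 2.43. That arrangement was the most common one among eligible models, at 36.0%, and was held by 30 of the 150 members in all. A further 16 had replicate 1 below every control while replicates 2 and 3 lay above every control, a pattern held by 34 of the 16770 eligible models. The remaining 30 were spread over 7 other arrangements, 10 of them with replicates 1, 2 and 3 below, above and within the control range. Members were chosen for a wide spread among these libraries, so their shares of such patterns follow in part from the choice.

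**Figure D3:**
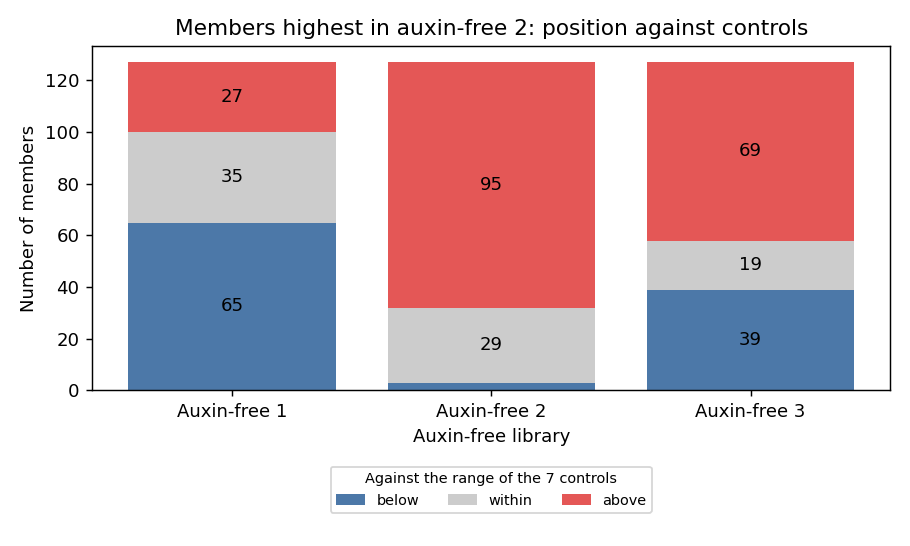
Number of the 127 members highest in auxin-free replicate 2 whose level in each auxin-free library lay below, within or above the range of the 7 controls. Replicate 1 lay below every control in 65 members and above in 27, replicate 2 lay above every control in 95 and below in 3, and replicate 3 lay below in 39 and above in 69.

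The most abundant member, at rank 81 and 663 bases long, had 339, 2338 and 1005 CPM in auxin-free replicates 1, 2 and 3, and 343 to 968 CPM in the controls with a median of 690. It was highest among the controls in control replicate 7 and was not called (log2 fold change 0.98 ± 0.43, SE; edgeR adjusted p = 0.0627). The member at rank 6, of 1130 bases, had 47.8, 1125 and 33.7 CPM against 186 to 358 CPM (median 272). Replicates 1 and 3 of that model lay far below every control and replicate 2 above all of them. Its averaged log2 fold change of 0.69 ± 0.75 (SE; edgeR adjusted p = 0.443) describes none of the 3 libraries.

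The 20 members lowest in auxin-free replicate 2 included 10 called higher and 4 called lower in the auxin-free samples, where 42.9% and 25.9% of eligible models were called so. The first, at rank 9 and 1104 bases long, had 38.2, 0.437 and 30.2 CPM in replicates 1, 2 and 3 against 2.21 to 11.0 CPM in the controls (median 8.27), so replicate 2 lay below every control and the others above. It was called higher (log2 fold change 1.77 ± 0.69, SE; edgeR adjusted p = 0.0392). In all, 5 of the 20 had this arrangement, which 58 of the 16770 eligible models shared. That contrast also follows in part from the choice of members for a wide spread. Members at ranks 60 and 68, both of 477 bases, had 92.2, 10.7 and 72.9 CPM and 432, 58.3 and 374 CPM in replicates 1, 2 and 3, against at most 2.05 and 2.17 CPM in any control. All 3 auxin-free libraries lay above every control in both models, and replicate 2 was the lowest of the 3. Both were called higher (log2 fold changes 5.65 ± 0.48 and 7.62 ± 0.51, SE; edgeR adjusted p = 5.12e-07 and 6.33e-08). The 3 members with replicate 2 in the middle were low in replicate 1, and the highest of them, at rank 78, had 67.2, 454 and 473 CPM against 0.184 to 5.95 CPM in the controls.

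Of the 150 members 87 were called higher in the auxin-free samples and 14 lower, and 49 did not pass (edgeR adjusted p at most 0.05). Over all 37034 models tested 63.3% were called, 32.9% higher and 30.4% lower, and over the 16770 eligible models, all of which were tested, 68.8% were called, 42.9% higher and 25.9% lower. The members' median log2 fold change was 1.56, against 0.02 over all models tested, and its median SE 0.48, against 0.25 over all tested. The rule used the levels of both groups and sought a wide spread among the auxin-free libraries, so these values describe the choice of members and nothing is read from them. All 3 auxin-free libraries lay above every control in 30 members and below in 6, where the shares over all tested models were 27.6% and 27.1%, or 54.8% in either direction, and those over the eligible models 36.0% and 24.3%.

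The calls of the members depended on the auxin-free libraries, most of all on replicate 2. Members were chosen for a spread whose extremes replicate 2 mostly carried, so this follows in part from the choice. Without that library 60 members were called higher and 40 lower, of which 58 and 13 carried the same call with all libraries and 27 of the falls were new. Without auxin-free replicate 1 the counts were 98 and 9, and without replicate 3 they were 82 and 6. Over all models tested, 12194 of 37034 were called higher and 11240 lower with all libraries. The counts were 10967 and 10139 of 37872 without replicate 2, 11513 and 10554 of 38217 without replicate 1, and 11010 and 10151 of 37804 without replicate 3. Leaving out single controls gave 83 to 85 rises and 10 to 13 falls.

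The spread of the same models over the 7 controls was not ranked by the rule, which read only the control mean. The ratio of highest to lowest control, on CPM + 1, had a median of 2.13 over the members, with a middle 50% of 1.74 to 3.15 and a range of 1.20 to 18.4. Over all eligible models the median was 1.65, with a middle 50% of 1.41 to 2.06. The median SD of log2(CPM + 1) over the controls was 0.38 for the members and 0.26 for all eligible models. In 18 members, or 12.0%, the control ratio reached 5.03, the value at rank 150, against 1.43% of eligible models. The 5.03 was taken over 3 auxin-free libraries and the control ratio over 7, and a range over more libraries tends to be wider. The members' control ratio was higher at each level examined. At a control mean of 30 to 100 CPM the median ratio was 1.95 over 25 members and 1.59 over 4519 other eligible models, and from 3 to 10 CPM it was 2.35 over 40 members and 1.78 over 2992 others. In the remaining 3 level bins, of 38, 37 and 10 members, the median ratios were 2.18, 2.28 and 1.83, against 1.92, 1.63 and 1.55 for the others.

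Control replicate 7 carried much of this spread. It was the highest control in 97 of the 150 members, or 64.7%, where over all eligible models it was the highest in 30.0%. The limit on the control mean includes that library, and 8 members, the first by rank among them, would have lain under 1 CPM without it. Over the 142 members at or above the limit on the other 6 controls it was the highest in 89, or 62.7%, against 29.8% of the 16718 eligible models that met the same condition. Without that library the median control ratio was 1.65 for the members and 1.56 for all eligible models, and the median SD of log2(CPM + 1) 0.27 and 0.24. The members took 0.642% of the reads in control replicate 7 and 0.389 to 0.450% in the other 6 controls. In the members highest in auxin-free replicate 2, control replicate 7 was the highest control in 93 of 127, and its median excess over the mean of the other 6 was 0.65 on the log2(CPM + 1) scale. The other 6 controls had medians between -0.26 and 0.01 by the same measure, where the mean they are set against includes control replicate 7. For the 16620 eligible models outside the set the median of control replicate 7 was 0.16.

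In the 20 members lowest in auxin-free replicate 2 the direction was the other way. Control replicate 7 was the lowest control in 10 of them and the highest in 1, and its median difference from the mean of the other 6 was -0.41, with the other controls between -0.07 and 0.16. It was the lowest control in 13.0% of eligible models. The member at rank 94, of 1548 bases, had 28.6, 3.68 and 17.3 CPM in auxin-free replicates 1, 2 and 3, and 0.52 CPM in control replicate 7, the lowest of its controls, which had a median of 1.86 and a highest value of 4.59 CPM. The opposite case was the member at rank 29, of 2400 bases, with 14.1, 0.309 and 12.5 CPM in the auxin-free replicates and 3.12 CPM in control replicate 7, its highest control.

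**Figure D4:**
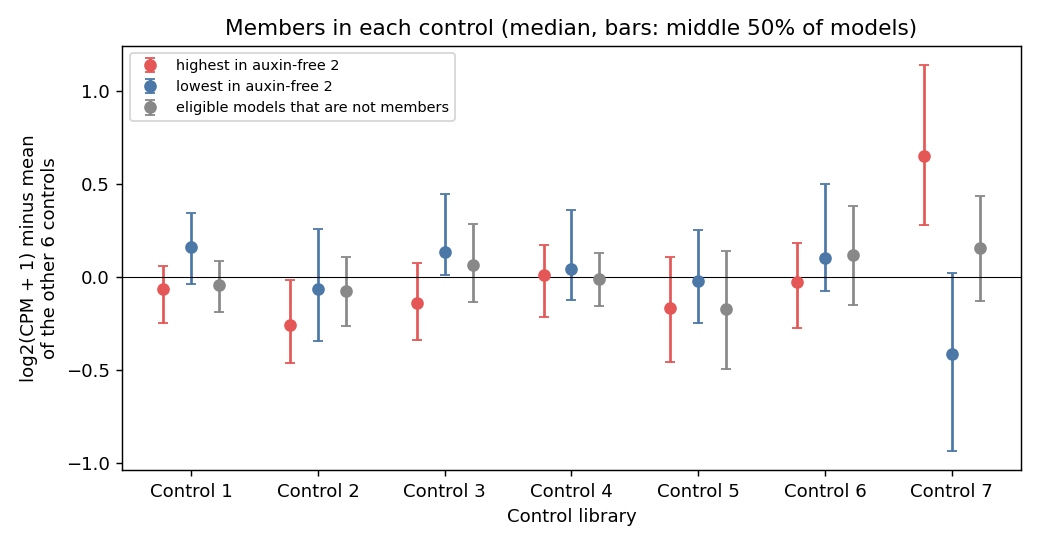
Median difference of log2(CPM + 1) between each control and the mean of the other 6, for the 127 members highest in auxin-free replicate 2, the 20 lowest there and the 16620 eligible models outside the set, with bars over the middle 50% of models. Control 7 stands at 0.65 for the first class and at -0.41 for the second, and the other controls lie between -0.26 and 0.16 in both.

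The departure of auxin-free replicate 2 from the other auxin-free libraries and that of control replicate 7 from the other controls share no library. Over the 150 members the signs of both departures were the same in 130, or 86.7%, and over the 16620 other eligible models in 59.8%. Pearson's correlation of the departures was 0.552 across the members (Spearman 0.447) and 0.332 across the other eligible models (Spearman 0.343). These describe correlations across models of the same libraries, and models are not independent replicates. The rule chose members for a wide spread among the auxin-free libraries, so their departures of replicate 2 spanned a wider range. A wider range can by itself raise the share of same signs and the correlation. The contrast with the other models is therefore not read as a trait of the members. For control replicates 1 to 6 the correlation across the members lay between -0.359 and -0.136. Each control was set against the mean of the other 6, so the departures of the controls cancel out within a model. Negative values for these controls thus follow in part from the positive one for control replicate 7. The difference between auxin-free replicates 3 and 1, which does not use replicate 2, had a correlation with the departure of control replicate 7 of 0.277 across the members and 0.0773 across the others. When the rule was applied to auxin-free replicates 1 and 3 alone, 56 of its 150 models were members, and control replicate 7 was the highest control in 58.7% of the 150. Among library properties, control replicate 7 had the smallest gap between length and effective length of the controls (356 bases), while among the auxin-free libraries replicate 1, not replicate 2, had the smallest. The part of that gap in the result was not tested.

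**Figure D5:**
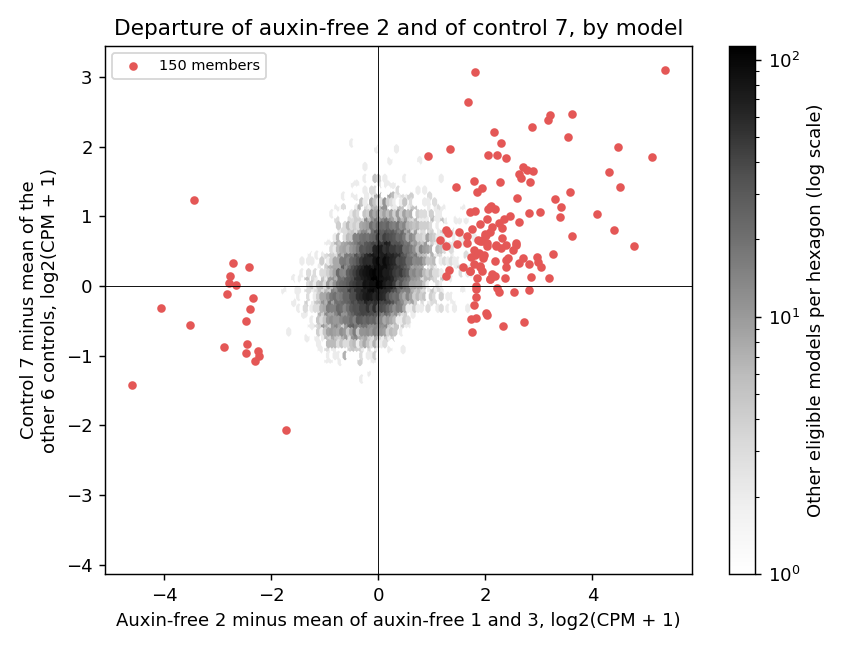
Departure of control 7 from the mean of the other 6 controls (vertical) against the departure of auxin-free 2 from the mean of auxin-free 1 and 3 (horizontal), both on log2(CPM + 1), with members as red points and the 16620 other eligible models as grey hexagons. Of the 150 members 130 lie in the quadrants where both departures have the same sign.

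Members highest in auxin-free replicate 2 also varied together over the controls, through control replicate 7. The median Pearson correlation of log2(CPM + 1) over the 7 controls was 0.478 over their 8001 pairs, 0.197 over the 190 pairs of members lowest in replicate 2, and -0.266 over the 2540 pairs between the classes. All pairs of eligible models had a median of 0.114. Without control replicate 7 the 4 medians were 0.0744, 0.00824, 0.0458 and 0.0998, so over the other 6 controls the members' pairs were no more alike than those of all eligible models. All pairs share the same libraries.

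In each group by position that held at least 16 members, control replicate 7 was most often the highest control. It was the highest control in 23 of the 28 members that lay below every control in auxin-free replicates 1 and 3 only, with a median excess of 0.82 on the log2 scale, and in 18 of the 26 that were above every control in all 3 auxin-free libraries, with a median excess of 0.68. It was the highest in 7 of the 7 members with replicates 1, 2 and 3 below, above and below the control range (median excess 1.06). In the 10 members with these replicates below, above and within that range it was the highest in 5 (median excess 0.48). Over all eligible models it was the highest in 30.0%. The member with the widest control range, at rank 44 and 369 bases long, did not follow control replicate 7. It had 13.7, 0.592 and 0.89 CPM in the auxin-free replicates, and 33.4, 28.6, 25.2, 13.5, 7.57, 0.864 and 2.23 CPM in control replicates 1 to 7, so it varied widely within both groups.

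The division of reads among similar models can move the level of a single model. Only 7 of the 150 members, or 4.67%, had whole estimated counts in all 10 libraries (within 0.001), which is what models without divided reads give, against 2.81% of eligible models. All 7 had the order replicate 1 below replicate 3 below replicate 2. The first of them, at rank 27 and 1491 bases long, had 159, 2172 and 578 reads in auxin-free replicates 1, 2 and 3, or 10.5, 134 and 35.6 CPM, against 3.31 to 6.32 CPM in the controls (median 4.89). It was called higher, with a log2 fold change of 3.67 ± 0.50 (SE; edgeR adjusted p = 3.12e-05), and control replicate 7 was its lowest control. The one at rank 138, of 888 bases, had 24, 201 and 30 reads, or 1.58, 12.4 and 1.85 CPM, against 5.53 to 15.7 CPM (median 8.95), so that replicate 2 stood within the control range and the others below it, as in the 28 members above. It was not called (-0.78 ± 0.53, SE; edgeR adjusted p = 0.218). The other 5 had ratios of 5.17 to 8.54. For the remaining 143 members the part of read division in the unevenness was not tested.

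The members were spread over 137 scaffolds, and 10 scaffolds held 2 or more. Of 4486 pairs of eligible models next to each other in the identifiers, 6 pairs consisted of 2 members and 72 of 1 member and 1 other model. All 6 pairs had replicate 1 below replicate 3 below replicate 2 in both models. One of them, at ranks 45 and 46, consisted of 2 models of 354 bases, with 3.68, 41.9 and 17.0 CPM and 8.82, 87.3 and 33.8 CPM in auxin-free replicates 1, 2 and 3. The scaffold with the most members held 4 among 11 eligible models, and these did not move together. The members at ranks 27 and 69 were highest in replicate 2, with 134 and 217 CPM there, and those at ranks 53 and 57 were lowest in it, with 1.72 and 2.30 CPM. The median length was 1297.5 bases for the members and 1438 bases for the eligible models.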

How the data were processed

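RNA of 10 samples was sequenced, and samples were grouped and numbered by their titles. The submitters' processing notes name Trimmomatic, a read trimmer, and Salmon, which estimates reads per transcript model, with versions and settings not given in the sources used here. Every file deposited by the authors gives, per the file headers, an estimated count of reads (not normalized, not always whole), a TPM value, a length and an effective length for 69500 models. Libraries held 11280031 to 23705016 estimated reads.

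CPM was computed on column sums. Rounded estimated counts were tested over all models in R 4.3.3 with edgeR 4.0.16 (minimum count of 10 in filterByExpr, TMM, robust quasi-likelihood fit, auxin-free against control, Benjamini-Hochberg adjustment, threshold 0.05). The fold change is auxin-free over control and the SE is its size divided by the square root of F. DESeq2 1.42.0, limma 3.58.1 (voom), other scalings and left-out samples were alternatives. Scripts were tested on simulated data. Pairs of libraries within a group differed by 3.77 to 61.2 chi-square per model, where sampling noise alone gives about 1, so all were kept as separate samples. The controls were not evenly apart. Replicates 1, 2 and 4 differed among themselves by 3.77 to 5.01, and replicates 3, 6 and 7 by 7.24 to 10.3. Control replicate 7 differed from replicates 1, 2, 4 and 5 by 26.7 to 61.2.

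By rule, the identifiers named are the first 2 members called higher, the first 2 called lower and the first 4 not called, in order of the ratio. Others are given by rank. The members, the classes and the tests were chosen with earlier results of these data known.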

Additional observations from a re-analysis of the deposited data

Results flagged for a closer look

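Among the 7 controls, 11 measures of the members were examined for a library far from the rest: the reads taken by all members, by those highest and by those lowest in auxin-free replicate 2, and the 8 members named by identifier. In 6 the gap between control replicate 7 and the nearest control, as a share of the whole range, was above Dixon's 95% critical value for 7 samples. Chance flags about 1 in 20 such groups. The share was 0.759 for the reads taken by all 150 members and 0.788 for those taken by the members highest in auxin-free replicate 2. It was 0.777 for Nitab4.5_0000977g0040.1, 0.851 for Nitab4.5_0001269g0070.1, 0.789 for Nitab4.5_0001269g0060.1 and 0.686 for Nitab4.5_0004757g0020.1. In every one of these 6 control replicate 7 was the highest. Nitab4.5_0000977g0040.1 met the limit of 1 CPM on the control mean only through that library, since its other 6 controls had a mean of 0.774 CPM, so its value is fixed in part by the choice of members. The measures overlap, since the named members are part of the sums. Taken model by model, control replicate 7 was high beyond that value in 46 of the 150 members, or 30.7%, and in 2.68% of the 16770 eligible models, and any control lay beyond it on either side in 32.7% and 5.52%. Among models that met the limit on the other 6 controls, control replicate 7 was high beyond that value in 41 of 142 members, or 28.9%, and in 2.53% of 16718 eligible models.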

How the results depend on the processing

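Of the alternatives to the values that answer a comparison, 116 left the value close to the main one and 25 moved it. Close was a wide measure for counts: 60 rises without auxin-free replicate 2 and 64 with limma-voom, against 87, were taken as close. A share of members was close if inside the binomial interval of the main one. Members that fell numbered 14, but 8 with no filter on low counts, 28 with limma-voom, 3 in the 6 samples numbered 1 to 3 without a block, and 41 without auxin-free replicate 2 and control replicate 7 together. The fit of the 6 unpaired samples, the joint omission, and the ranking on the mean of the other 6 controls, which shared 142 models with the members, were chosen after seeing the data. Leaving out 1 library gave 6 to 40 falls, 60 to 98 rises and 21106 to 23712 calls over all models. With the replicate block 53 members rose and 11 fell, against 70 rises in the same samples without it. Whether the numbers pair the samples is not stated in the labels. Same-numbered deviations had correlations of 0.0851, -0.116 and -0.0362, and no auxin-free sample correlated best with the control of its number. The block changed the calls over all models from 21841 to 20626. A block in 6 samples also leaves less to estimate the spread from, so these values cannot exclude a pairing. Nitab4.5_0001269g0070.1 changed sign with limma-voom (-1.25), with the replicate block (-0.78), without auxin-free replicate 2 (leave-one-out range -4.04 to 1.95) and without that library and control 7 (-2.99). Nitab4.5_0004757g0020.1 did so with limma-voom (-0.11), without auxin-free replicate 2 (range -0.36 to 1.72) and without both (-0.18).

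The median control ratio of 2.13 became 2.52 and 1.69 with pseudocounts of 0.1 and 5, 1.93 over the 7 members with whole counts, and 1.65 to 2.13 with single controls left out. Ranking by TPM shared 19 models with the members. The models it ranked first had a median length of 210 bases and a median of 5.9 reads in the highest auxin-free library. Of the TPM set, 34.7% were set apart by auxin-free replicate 2 and 24.7% by replicate 3, 49.3% were highest in replicate 2, 53.3% lowest in replicate 1, and 30.0% highest in control 7. In TPM the 150 members themselves had a median ratio of 6.88, and 127 were highest in replicate 2. Among models with whole counts, where the top 150 reach down to a ratio of 1.45, replicate 1 set apart 28.0% and replicate 3 8.67%, 47.3% were highest in replicate 2, 44.7% lowest in replicate 1, and 35.3% highest in control 7. Of the top 300, 77.0% were highest in replicate 2 and 56.0% in control 7. With 1 auxin-free library left out of the ranking, 48.7 to 66.0% were highest in control 7. On log2(TPM + 1) the median pair correlation of members highest in replicate 2 was 0.654, against 0.528 for all eligible pairs. The cause of these shifts was not tested.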

Other observations

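Outside the members, auxin-free replicate 2 lay farther from the controls than its fellow libraries. Over the 16620 eligible models that are not members, its displacement toward the control mean, with 1 other auxin-free library as baseline and the remaining one as the start of the change, was -12.4% of the change (-15.0 and -9.69% with the libraries exchanged). The values were 9.74% for replicate 1 (4.45 and 15.0%) and 2.62% for replicate 3 (-4.45 and 9.69%). The 28 members with replicate 2 within the control range and replicates 1 and 3 below it ran against the position of replicate 2 over the other models. They were grouped by where replicate 2 lay, so this restates their definition. The 3 members highest in replicate 2 with all 3 auxin-free libraries below every control did so too. In the 26 with all 3 above, and the 27 with replicate 1 within the range and the others above, replicate 2 lay farthest above the controls. Over the 37034 models tested, the deviation of auxin-free replicate 2 from its group mean had its highest correlation, among the 7 controls, with that of control replicate 7.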
